A study of Mus musculus with 54 samples.

Results

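Thin limb of Henle barcodes were looked for in 39 droplet libraries of adult mouse kidney. A barcode (1 cell or 1 nucleus) was taken as a member when at least 2 of the 6 marker genes Slc14a2, Bst1, Fst, Epha7, Slc4a11 and Corin had a unique molecular identifier (UMI, 1 counted RNA molecule) and none of Slc12a1, Slc12a3, Aqp2, Slc5a2 and Pecam1 had one. A gene that was not listed for a library counted as 0. The rule found 665 of 175959 barcodes, or 0.378%. It reads measured values, so the levels of its 11 genes in the members are a description and were not tested.

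The thin limbs are the narrow part of the loop of Henle in the kidney medulla, between the proximal tubule and the thick ascending limb. The thin descending limb lets water out through aquaporin 1 (Aqp1), and the thin ascending limb passes salt but not water, which is part of the countercurrent system that concentrates urine. Slc14a2 codes for the UT-A urea transporters of the thin descending limb and of the inner medullary collecting duct. Bst1 is an ADP-ribosyl cyclase of the cell surface, Fst the activin antagonist follistatin, Epha7 an ephrin receptor, Slc4a11 a membrane transporter of the bicarbonate transporter family and Corin a membrane protease that activates natriuretic peptides. Of the 5 genes that a member had to lack, Slc12a1 marks the thick ascending limb, Slc12a3 the distal convoluted tubule, Aqp2 the principal cells of the collecting duct, Slc5a2 the first proximal tubule segments and Pecam1 the endothelium.

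The study compared ways to dissociate and store kidney for single-cell and single-nucleus RNA sequencing, in 13 groups of 3 droplet libraries and 5 groups of 3 bulk libraries. Male C57BL/6J mice of 19 weeks, littermates of the AFAPIL.1DEL line, gave cell suspensions made on ice with a cold-active protease (cold) or at body temperature with a commercial enzyme kit (warm), each used fresh, after 6 weeks of cryopreservation or after 3 months in methanol (10x v2 chemistry), and bulk libraries of the fresh suspensions. Untreated male Balb/c littermates of 18 weeks gave cold-dissociated fresh cells, nuclei (both v2) and bulk libraries of intact kidney. Wild type female Balb/c mice of 15 weeks that had bred before gave cold-dissociated cells, fresh or after 2 weeks of cryopreservation, nuclei of frozen kidneys by 3 protocols (all v3), and bulk libraries of intact kidney and of the cold suspension. SN_FANS_3×500g and SN_FANS_1×2000g nuclei were sorted by fluorescence after 3 slow spins or 1 fast spin, and SN_sucrose nuclei were passed through a sucrose cushion without a sort. Strain, sex, age, chemistry and batch change together between the 3 experiments and cannot be told apart, so comparisons were made within an experiment.

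Members were found mostly in the libraries of the female mice. The 39 libraries held 983522 to 35170947 UMIs, and 622 of the 665 members (93.5%) came from the 15 female libraries. All 15 libraries with no member had UMIs of fewer than 2 of the 6 marker genes (11 of them of 1 gene, 4 of none), so the rule could not be met there with the deposited counts. The authors kept genes seen in at least 10 cells of a sample, so which markers were listed itself depended on the cells and the depth. No barcode sequence was shared between members of different libraries. No doublet caller was run.

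Of the members, 433 had exactly 2 of the 6 marker genes, 232 had 3 or more and 40 had 4 or more. Barcodes at the edge of the rule were compared with these as a description. In female fresh cells, Aqp1 stood at 2462 CPM (UMIs scaled to counts-per-million of the set's total) over the 45 members with exactly 2 marker genes and at 3429 CPM over the 36 with 3 or more. It stood at 239 CPM over the 162 cells with 1 marker gene and no excluded gene, and at 1431 CPM over the 11 cells that failed by a single UMI of an excluded gene. Cryab, a small heat shock protein of the medulla, stood at 7458, 6003, 1874 and 2801 CPM in the same 4 sets. In female nuclei, Aqp1 stood at 426 CPM with exactly 2 marker genes (287 nuclei), 769 CPM with 3 or more (166), 110 CPM with 1 (2072), and 496 CPM in the 316 nuclei that failed by 1 UMI. Nuclei lost more candidates to the excluded genes than cells did: 761 of the 1214 female nuclei with 2 marker genes (62.7%) had a UMI of an excluded gene, against 22 of 103 fresh cells and 31 of 119 cryopreserved cells.

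The 6 marker genes paired unevenly in the members. In the 81 female fresh members, Bst1 had a UMI in 92.6%, Slc4a11 in 74.1%, Fst in 38.3%, Corin in 22.2%, Epha7 in 12.3% and Slc14a2 in 8.64%. Bst1 and Slc4a11 were detected together in 55 of the 81, and Fst and Slc4a11 in 27. All 7 cells with Slc14a2 also had Corin, and no fresh member had Fst together with either Corin or Slc14a2. The 88 cryopreserved members repeated this layout, with Bst1 in 93.2%, Slc4a11 in 59.1%, Corin in 35.2% and Slc14a2 in 19.3%, and all 17 with Slc14a2 again had Corin. Fst was not listed for the cryopreserved libraries and so could not count there. In the 453 female nuclei the order was Slc4a11 in 75.7%, Bst1 in 57.4%, Epha7 in 38.9%, Fst in 38.2%, Corin in 18.1% and Slc14a2 in 15.5%. There 34 nuclei had Slc14a2 with Corin, and 35 had Slc14a2 with Slc4a11, a pair that is taken up again with the clusters of nuclei.

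Genes known from the thin limbs that the rule did not use were checked next, beside thick ascending limb barcodes, a set defined by at least 2 of Slc12a1, Umod and Egf with Slc12a1 detected (17164 barcodes in all). Aqp1 had a UMI in 69.1% of the female fresh members, 6.65% of the thick limb cells and 20.4% of all other cells. In cryopreserved cells these shares were 44.3%, 0.575% and 6.33%, and in nuclei 58.7%, 12.8% and 17.6%. Cryab was detected in 98.8% of the fresh members against 21.0% of thick limb cells, in 96.6% of the cryopreserved members against 15.5%, and in 32.9% of the nuclei against 7.89%. Cdh13, a cadherin without a transmembrane part, was detected in 52.1% of the nuclei that were members and 3.66% of thick limb nuclei, and in 24.7% and 0.0842% of the fresh cells. Akr1b3, the aldose reductase that makes sorbitol as an osmolyte, was detected in 59.3% of the fresh members, against 11.9% of thick limb cells. Some clusters described below that go against the label had both genes too. Cryab was detected in 100.0% of the Apoe-led fresh cells, 80.0% of the Acta2-led cryopreserved cells and 65.0% of the Agmo-led nuclei. Akr1b3 was detected in 62.5%, 33.3% and 100.0% of these. In the other such nuclei clusters Cryab was detected in 13.5% to 45.0% and Akr1b3 in 3.85% to 17.65%. Median UMIs per barcode, which bear on such shares, were 3865, 3080 and 4171 in the members of the 3 fresh libraries and 5724, 3097 and 4131 in their thick limb cells, and 1927 to 3216 in the nuclei against 2600.5 to 3542 in thick limb nuclei.

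Bsnd and Cldn10, genes of the ascending loop, were rarer in the members than in thick limb barcodes. Both belong to the list of 8 thin limb genes outside the rule, so not every gene of that list was more frequent in members. Bsnd, the accessory subunit of kidney chloride channels, was detected in 0% of the fresh members and 26.1% of thick limb cells. Cldn10, a cation and anion claudin of the loop, was detected in 3.70% against 63.3% in fresh cells and in 21.2% against 62.2% in nuclei. Its share in the member nuclei was uneven over the clusters described below. Epithelial identity was present, with Pax8, a transcription factor of nephron cells, in 54.3% of the fresh, 62.5% of the cryopreserved and 83.9% of the nuclear members. Umod, the uromodulin of the thick limb, had a UMI in 34.6% of the fresh members and in 97.1% of thick limb cells. Its share was uneven over the clusters described below. In fresh cells it was 70.6% in the Angpt2-led, 50.0% in the Akr1b3-led, 21.4% in the Lypd2-led and 0% in the Apoe-led cluster. In cryopreserved cells it was 48.7% in the Id3-led, 41.2% in the Aqp1-led and 6.67% in the Acta2-led cluster. Free RNA can give such UMIs, and its part was not tested.

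Leading genes of the members, by the ratio of their CPM to that of all other barcodes of the same libraries, were taken with no test. In fresh cells they were led by Lypd2 (1080 CPM against 2.00), a small surface protein. Angpt2, the angiopoietin that antagonizes Tie2 signaling, stood at 609 CPM against 3.42. Npy, the neuropeptide Y precursor, stood at 6229 CPM against 68.3, and Cdh13 and Cryab were also among the first 15. In cryopreserved cells Angpt2 (758 against 16.9 CPM), the homeobox gene Uncx, Aqp1 (2055 against 84.5 CPM) and Npy (4842 against 233 CPM) were among the first 15. In nuclei they included Htr4, a serotonin receptor (343 against 4.39 CPM), Cdh13 (1409 against 35.5 CPM), Lypd2, Sorcs3 and Angpt2. Proser2 and Angpt2 were among the first 15 in all 3 sets.

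Markers of endothelial, intercalated, immune and proximal tubule S3 cells were mostly at 0 in the fresh members, and proximal tubule transcripts were present in the nuclei. This does not hold for every gene of every list. Apela, of the principal cell list, stood at 977 CPM in fresh members against 36.7 CPM in all other cells. Akap12, of the parietal epithelium list, stood at 262 against 10.7 CPM. Of 7 endothelial markers 6 were at 0 in fresh members, as were 5 of 6 intercalated cell markers, 6 of 7 immune markers and both proximal tubule S3 markers that were listed. In the nuclei, the summed level of the proximal tubule S1 and S2 markers was 1187 to 3649 CPM over the 9 libraries, against 6767 to 8289 CPM in all other nuclei. Abundant proximal tubule transcripts such as Kap stood at 1318 to 5792 CPM against 2276 to 5876 CPM. Kap, an androgen-regulated kidney protein, was detected in 72.4% of the nuclei that were members, 69.5% of thick limb nuclei and 74.0% of the rest, a like share in every class. Slc34a1, the phosphate transporter of the proximal tubule, was detected in 36.9% of the nuclei, 14.8% of the fresh members and 5.68% of the cryopreserved members.

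The members were clustered within each female set without the 11 genes of the rule, and clusters are called by their leading genes. The fresh cells fell into 4 clusters. The largest, of 42 cells, was led by Lypd2, Car14 (a membrane carbonic anhydrase) and Spp1 (osteopontin), and had Aqp1 in 100.0%, Slc4a11 in 90.5% and Fst in 71.4%, with Corin and Slc14a2 in none. A cluster of 17 cells was led by Angpt2, Prss12 and Cldn8 and was the reverse, with Corin in 100.0%, Slc14a2 in 41.2% and Aqp1 in 11.8%. A cluster of 14 cells was led by Akr1b3, Plat and Mal, with Aqp1 in 85.7% and Cldn4 in 50.0%. The 8 cells of the fourth were led by Apoe, C3, Tagln, Acta2 and Rgs5, genes of smooth muscle and mural cells among them, and had no UMI of Aqp1 or Npy. These 8 cells go against the label. Tagln, Acta2 and Rgs5 were each detected in fewer of them than the epithelial genes Cdh16 (87.5%), Epcam (62.5%) and Pax8 (50.0%).

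The cryopreserved members gave 3 clusters of the same kind. One of 34 cells was led by Aqp1, Fxyd2 and Akr1b3, with Aqp1 in 97.1%, Slc4a11 in 94.1% and Corin in 0%, and shared 7 of 30 leading genes with the Lypd2-led fresh cluster. One of 39 cells was led by Id3, Angpt2 and Uncx, with Corin in 69.2% and Aqp1 in 15.4%, and shared 17 of 30 with the Angpt2-led fresh cluster. The 15 cells of the last were led by Acta2, Tagln and Rgs5, had no Aqp1, shared 13 of 30 with the Apoe-led fresh cluster, and go against the label too. Acta2, Tagln and Rgs5 were detected in 26.67%, 40.0% and 26.67% of them, and the epithelial genes Cdh16 and Pax8 in 73.33% and 40.0%.

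The 453 nuclei gave 8 clusters, of which 4 went against the label. The choice of these 4 was made after their genes were seen. They held 109 nuclei (24.06%), and the other 4 held 344 (75.94%). A cluster of 104 nuclei led by Rbfox1, Car14 and Cdh13 had Cdh13 in 98.1%, Fst in 86.5%, Aqp1 in 76.9% and Ackr3, a chemokine scavenging receptor, in 81.7%. It shared 8 of 30 leading genes with the Lypd2-led fresh cluster, namely Ackr3, Car14, Cdh13, Enpp2, Hs6st2, Lypd2, Ppp1r1a and Spp1. A cluster of 117 nuclei led by Sytl2, Creb5 and Stk32a had Slc4a11 in 85.5%, Cdh13 in 79.5% and Aqp1 in 65.8%. One of 69 nuclei led by Cacna1d and Sorcs3 had Bst1 in 81.2%, Epha7 in 78.3%, Aqp1 in 78.3% and Cryab in 56.5%. One of 54 nuclei led by Htr4, Tshr and Prss12 had Corin in 68.5%, Slc14a2 in 61.1%, Jag1 (a Notch ligand) in 55.6%, Angpt2 in 72.2%, Aqp1 in 22.2% and Cdh13 in 9.26%. It shared Angpt2, Aox3, Fstl1, Npy, Prss12, Tspan8 and Uncx, 7 of 30 leading genes, with the Angpt2-led fresh cluster.

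Among the 4 clusters that went against the label, 20 nuclei led by Agmo and Akr1b3 had Slc14a2 in 100.0% and Slc4a11 in 95.0% but Bst1 and Fst in 0%. Gata3, a transcription factor of the collecting duct, was detected in 65.0% of them and Aqp4, a principal cell water channel, in 40.0%. Gata3 was at 0 or 1.92% in each of the other 7 clusters. The 52 nuclei led by Aadat, Snhg11, Slco1a6 and Slc7a12 had the proximal tubule endocytic receptors Cubn in 100.0% and Lrp2 in 98.1%. Their median of 5296 UMIs exceeded the 2630 of all member nuclei. The 17 nuclei led by Acsm2 and Nox4 had Slc34a1 and Lrp2 in 100.0% and a median of 5035 UMIs. Cldn10 was detected in 75.0% of the Aadat-led and 82.4% of the Acsm2-led nuclei. In the Rbfox1-, Sytl2-, Cacna1d- and Htr4-led clusters it was detected in 7.41% to 14.5%. The last 20, with Prkg1 and Robo2 among their leading genes, had the fibroblast receptor Pdgfra in 70.0%.

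**Figure D1:**
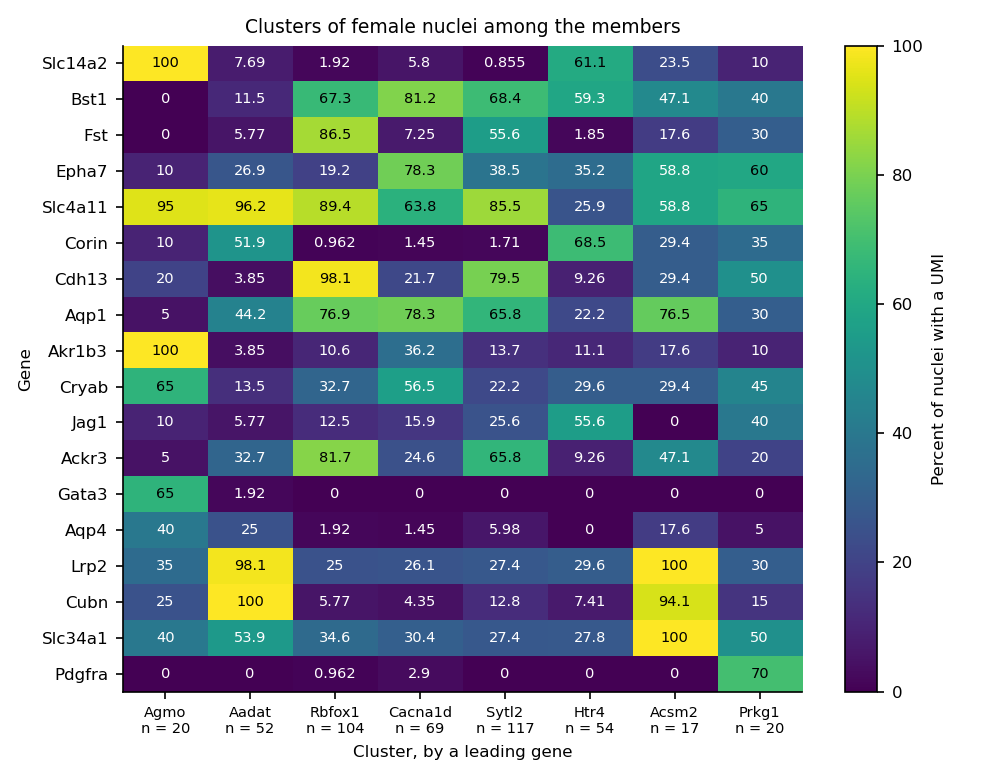
Percent of nuclei with a UMI of each gene (color and number) in the 8 clusters of the 453 female nuclei that met the rule, each called by a leading gene. Slc14a2 is frequent in the Agmo-led cluster, which lacks Bst1 and Fst and has Gata3, and in the Htr4-led cluster, which has Corin and Bst1. Lrp2 and Cubn mark the Aadat-led and Acsm2-led clusters.

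Each of the 8 clusters held nuclei of all 3 protocols. The Rbfox1-led cluster held 21 SN_FANS_3×500g, 58 SN_FANS_1×2000g and 25 SN_sucrose nuclei, the Sytl2-led cluster 48, 38 and 31, the Cacna1d-led cluster 29, 26 and 14, and the Htr4-led cluster 24, 21 and 9. The Aadat-led cluster held 21, 18 and 13 nuclei. These numbers were not tested, since genes that define the clusters differed between the protocols.

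The share of members was higher in each cryopreserved than in any fresh female library, a difference that 3 libraries a group cannot bring to a p under 0.05. The cryopreserved libraries held 1.94%, 1.56% and 2.86% (2.12% ± 0.671, SD, n = 3) and the fresh libraries 0.673%, 0.366% and 0.476% (0.505% ± 0.156, n = 3). The groups did not overlap, at a ratio of 4.20 and a difference of 1.62 percentage points, with p = 0.1 in a two-sided exact permutation test over libraries, the smallest that 3 against 3 allows (0.35 after adjustment over the 7 share comparisons). The ratio was 3.47 to 5.04 when each library was left out in turn. With each barcode thinned to 1000 UMIs the shares were 0.931% and 0.379% and still did not overlap, but with 500 UMIs they were 0.344% and 0.204% and overlapped (exact p = 0.3). With at least 3 marker genes required the shares were 0.518% and 0.224%, at a ratio of 2.32, and overlapped too (exact p = 0.2). With the 4 marker genes that had UMIs in every female library, an alternative chosen after the data were seen, the ratio was 4.62. Members per 100 thick limb barcodes were 57.7 ± 29.0 after cryopreservation and 7.49 ± 2.89 in fresh cells. The thick limb itself had 174 barcodes of 4274 after cryopreservation and 1188 of 16947 fresh, and these ratios were not tested. The paper reports a strong depletion of proximal tubule cells after cryopreservation in this experiment. Such a loss raises the share of the types that remain, and its part in the higher share of members was not tested.

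In nuclei the shares of the 3 protocols overlapped. They were 0.774%, 0.537% and 0.689% in SN_FANS_3×500g (0.667% ± 0.120), 0.623%, 0.814% and 0.746% in SN_FANS_1×2000g (0.727% ± 0.0968) and 0.313%, 0.355% and 0.635% in SN_sucrose (0.434% ± 0.175), each n = 3. The 9 nuclei libraries overlapped the 3 fresh cell libraries, with a difference of 0.105 points (exact permutation p = 0.382, adjusted 0.445) that turned to -0.0416 when barcodes with Slc34a1 were left out. Before the excluded genes were applied, 1214 of 74454 nuclei and 103 of 16947 fresh cells had at least 2 marker genes. The excluded genes removed 62.7% of these nuclei and 21.4% of these cells. The part of this unequal removal in the comparison of shares was not tested. SN_FANS_1×2000g differed from SN_FANS_3×500g by 0.0607 points (exact p = 0.6), a difference that turned negative with thinned counts. SN_sucrose differed from SN_FANS_3×500g by -0.232 points and from SN_FANS_1×2000g by -0.293 points, both with overlap and an exact p of 0.2. Thinned to 1000 UMIs, SN_sucrose no longer overlapped either of them, at 0.343% against 0.577% and 0.520%. Members numbered 3.74 ± 0.628, 5.39 ± 1.24 and 3.25 ± 1.06 per 100 thick limb nuclei in the 3 protocols, in the same order, values that were not tested.

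Male libraries gave few members. The Balb/c ones were shallower, with 609 UMIs per barcode in male cells outside the members against 3765 in female fresh cells. In nuclei these values were 1036 and 3677. Thinned to 500 UMIs, the shares were 0.159% ± 0.148 in male cells and 0.204% ± 0.112 in female fresh cells. That left out 5131 of 9153 male cells. Male nuclei then held 0.0227% and the female nuclei groups 0.205% to 0.281%. The part of depth was not tested. Male Balb/c cells had 9, 2 and 5 members (0.190% ± 0.156, n = 3) and male nuclei 2, 5 and 8 (0.0646% ± 0.0410), an overlap with an exact p of 0.3. Among the 16 male cells Aqp1 was detected in 81.2% and Cryab in 75.0%, and among the 15 male nuclei Cdh13 in 53.3% and Aqp1 in 33.3%. C57BL/6J cells gave 4 members in cold fresh libraries and 8 in warm fresh ones, all 8 in library 2. None was found among 3519 and 3483 cryopreserved cells (cold and warm) or 11627 and 5545 methanol-fixed cells. The libraries of these 4 groups each had UMIs of fewer than 2 marker genes. These counts of 0 thus followed from the genes listed and are no measure of the share of thin limb cells, and no test was run.

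**Figure D2:**
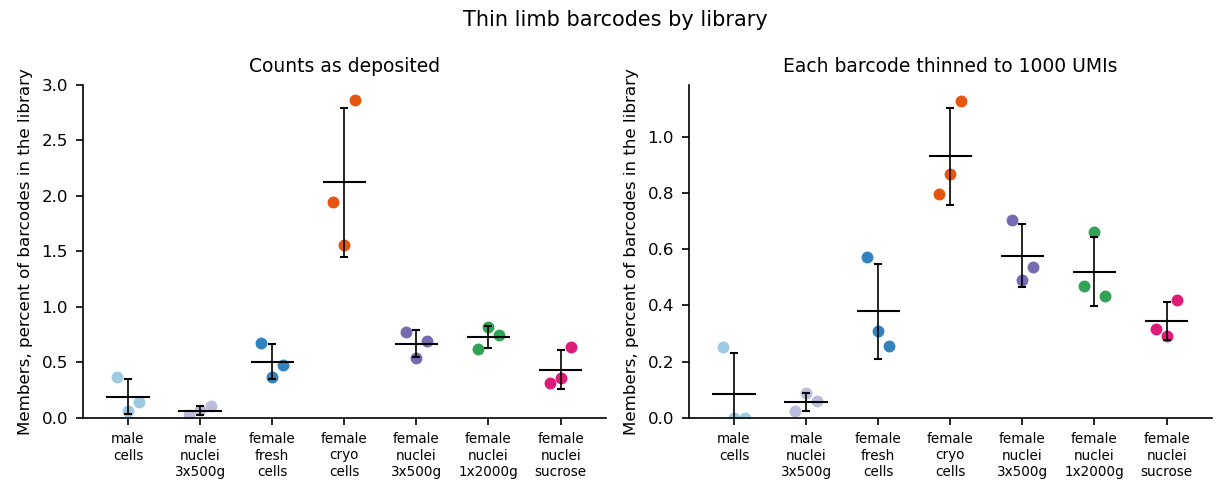
Members as a percent of the barcodes of each library (points), with the group mean (line) and SD (bars), for the counts as deposited (left) and with every barcode thinned to 1000 UMIs (right, shallower barcodes left out). The 3 female cryopreserved libraries lie above the 3 fresh ones in both panels. The male groups, of shallower libraries and another chemistry, lie lowest.

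Gene expression in the members was compared on UMIs summed over the members of each library with the quasi-likelihood test of edgeR, adjusted over all genes tested, with n = 3 libraries a group. Genes passed at an adjusted p under 0.05, and p-values set the difference between groups against the spread between libraries. Each value is a CPM over the genes listed in both groups, so the scale differs between comparisons and from that of the whole-set levels above. Of the male and C57BL/6J groups none had enough members for this test.

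Few genes differed between cryopreserved and fresh members, and none of the thin limb list did. Of 1597 genes, 6 were lower (0.376% of those tested) and 1 was higher (0.0626%). Car14 stood at 7.85, 61.6 and 26.4 CPM after cryopreservation and at 292, 95.5 and 303 CPM fresh (log2 fold change -2.87 ± 0.57 SE, adjusted p = 0.044). All cryopreserved libraries lay below all fresh ones, and Car14 is a leading gene of the Lypd2-led fresh cluster. Rnf183, a medullary ubiquitin ligase, stood at 15.7, 51.3 and 19.8 against 132, 162 and 225 CPM (-2.53 ± 0.44, adjusted p = 0.030). Mt1, a metallothionein, stood at 55.0, 71.8 and 26.4 against 292, 258 and 169 CPM (-2.24 ± 0.39). The other 3 lower genes, Ndufb6 (-1.58), Cox6a1 (-1.20) and Uqcr10 (-1.18), code for subunits of the respiratory chain.

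The gene that was higher, Gm42418, stood at 5490, 3724 and 5693 against 2029, 2043 and 1652 CPM (1.46 ± 0.20, adjusted p = 0.0088). It overlaps ribosomal RNA sequence, so its count is uncertain. Of the 5 thin limb genes tested 0 passed, with a median of -0.40 against 0.02 over all genes. Aqp1 stood at 1736, 3129 and 1633 against 2362, 3523 and 3337 CPM (-0.40, adjusted p = 0.52) and Cryab had a log2 fold change of -0.00 (adjusted p = 0.99). No tested gene of the other lists reported here passed. On the stress-response list that the study chose, Jun (1.54 ± 0.35, adjusted p = 0.063) and Hspb1 (-1.29 ± 0.30, adjusted p = 0.064) had groups that did not overlap. The other tested genes of that list had an adjusted p of at least 0.4686. Atp1b1 (-0.84) and Tmem27 (-0.97) each had an adjusted p of 0.066. At an unadjusted p under 0.05, 86 genes were higher and 134 lower. The count of lower genes rested on single libraries: it was 0 without cryopreserved library 1 or 3 or fresh library 1 or 3, 15 without cryopreserved library 2 and 13 without fresh library 2. The count of higher genes was 5 without cryopreserved library 2, 3 without cryopreserved library 3 or fresh library 1 or 2, and 0 without fresh library 3. The Acta2-led cluster held 15 of the 88 cryopreserved and the Apoe-led cluster 8 of the 81 fresh members, and the Corin-rich clusters 39 and 17. Their part in these differences was not tested.

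Between SN_FANS_3×500g nuclei and fresh cells nearly every gene differed, with 1471 higher (46.4%) and 1207 lower (38%) of 3173 tested, or 84.4% in either direction, and a median log2 fold change of 0.54, which is not taken off the values below. Against that background 4 of 5 thin limb genes passed. Aqp1 stood at 366, 401 and 431 CPM in nuclei and 3425, 4712 and 4456 CPM in cells (-3.50 ± 0.23, adjusted p = 2.88e-12). Cryab stood at 159, 177 and 186 against 8936, 8722 and 10623 CPM (-5.87 ± 0.26). Both were lower in every nuclei library than in any cell library.

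Akr1b3 stood at 95.6, 115 and 104 against 2116, 536 and 2491 CPM (-4.13 ± 0.40). Cdh13 ran the other way, at 1418, 1542 and 2065 CPM in nuclei and 212, 128 and 135 CPM in cells (3.25 ± 0.27, adjusted p = 2.09e-10). Jag1 did not pass (-0.01, adjusted p = 0.98). Nuclei were counted over introns and exons and cells over exons. In GRCm38 with GENCODE vM21, Cdh13 spans 1041 kb (chr8:118283733-119324921, plus strand), Aqp1 12.1 kb (chr6:55336432-55348555, plus), Akr1b3 15.0 kb (chr6:34302434-34317478, minus) and Cryab 5.31 kb (chr9:50751325-50756636, plus). The part of gene length in these differences was not tested.

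The other groups of genes split in the same comparison. Of 5 genes of osmotic adaptation, Nfat5, the tonicity-responsive transcription factor, rose from 272, 243 and 105 CPM in cells to 1163, 1854 and 2176 CPM in nuclei (2.90 ± 0.29). Akr1b3, Cryab and the small heat shock protein Hspb1 (-5.66) were lower, and Slc6a6, the taurine transporter, was higher by 0.59, a call that was lost in 5 of 11 alternatives. Of 4 tight junction genes, the scaffold gene Tjp1 (1.01) was higher and the claudins Cldn2 (-1.01), Cldn7 (-3.04) and Cldn8 (-4.37) lower. Cldn2 lost its call in 4 of 9 alternatives and Tjp1 in 1 of 11.

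Of 5 transport genes, Kcnj16, a potassium channel subunit, was higher (2.35). The sodium pump subunit Atp1b1 (-2.67), the pump's modulator Fxyd2 (-4.35) and Aqp1 were lower. Slc9a3, the sodium-proton exchanger of the proximal tubule and loop, had no UMI in the fresh members and was at least 24.1-fold higher in nuclei. Of 7 genes of nephron epithelium, the transcription factors Pax2 (2.06) and Pax8 (1.62) and Cdh1 (1.61) were higher, and Cdh16 (-3.14), Epcam (-4.40), Krt8 (-3.23) and Krt18 (-3.49) lower. The nuclear RNAs Malat1 (1.21) and Neat1 (1.34) were higher. Neat1 lost its call with at least 3 marker genes required (edgeR adjusted p = 0.597). Of 8 stress-response genes from a list that the study chose on its own samples, 7 were lower, among them Hspa8 (-4.78) and Jund (-3.73), and none was higher.

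Proximal tubule genes split between the nuclei and the cells. Of 5 S1 and S2 markers tested 4 were higher in nuclei and 1 lower, and of 5 abundant proximal tubule transcripts 1 was higher and 4 lower. Lrp2 (3.53), Cubn (6.03), Slc34a1 (2.29), Slc4a4 (1.69) and Kap (1.95) were higher. The 5 largest differences were Rnf24, Sugct, Snhg11, Slc7a12 and Slco1a6, which were at least 108-, 79.5-, 72.0-, 59.2- and 57.8-fold higher in nuclei, with no UMI in the fresh members. All but Sugct are leading genes of the Aadat-led cluster, which held 21 of the 156 nuclei. Miox (-1.29), Gpx3 (-1.09) and Tmem27 (-2.97), also proximal tubule genes, were lower. The largest decreases were those of Fau, a ribosomal protein fusion gene (10.6, 0 and 0 against 2368, 2465 and 2311 CPM, -8.91 ± 0.42), Gapdh (-8.06), and Gm10709, Gstm2 and Snrpd2, which had no UMI in nuclei and were at least 68.0-, 57.8- and 55.8-fold lower. Gstm2 shares sequence with its paralogs and is uncertain. Without the members that had Slc34a1, 925 genes were higher.

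**Figure D3:**
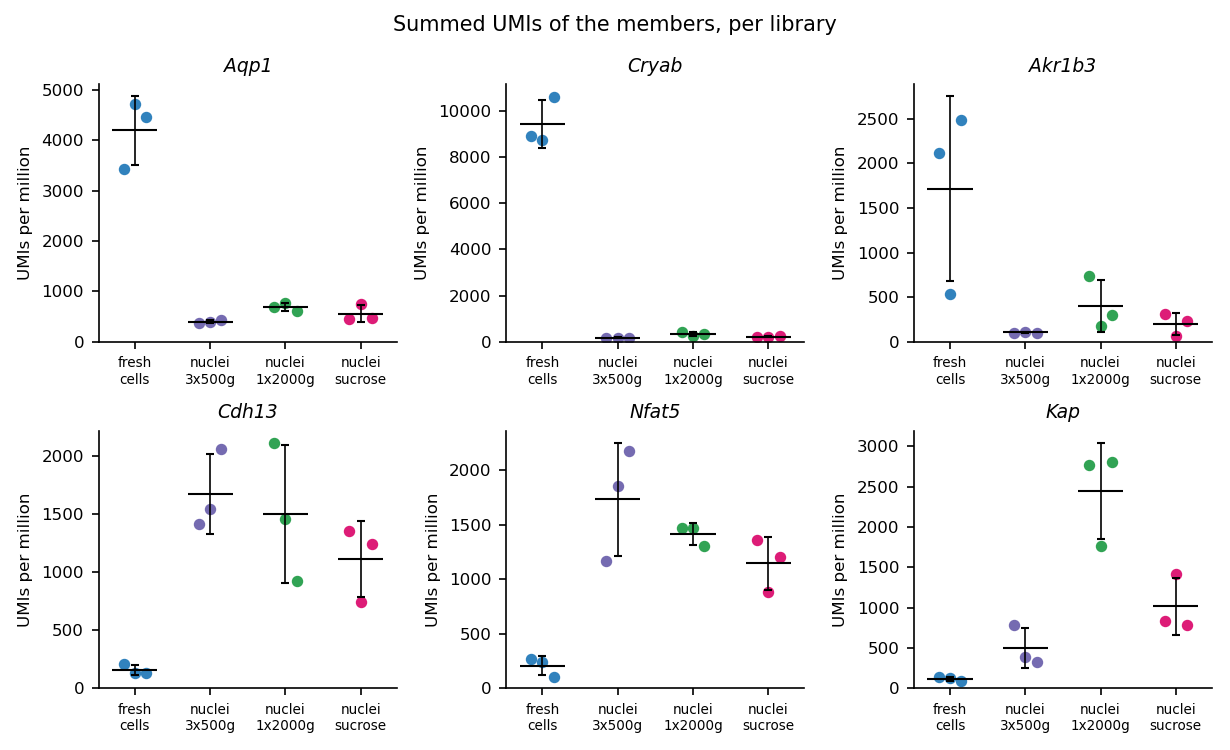
Levels of 6 genes in CPM (axes: UMIs scaled to the counts-per-million of the members' total), summed over the members of each female library (points) over the 13890 genes listed for both cells and nuclei, with the group mean (line) and SD (bars, n = 3). Aqp1, Cryab and Akr1b3 have their highest group mean in fresh cells, and Cdh13 and Nfat5 are lowest there. Kap is highest in SN_FANS_1×2000g nuclei.

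To see whether these differences were particular to the members, the change between SN_FANS_3×500g nuclei and fresh cells was compared with that in thick limb barcodes of the same libraries in 1 edgeR fit with library as a block. It was unequal for 111 of 9680 genes (1.15%), 30 with a positive and 81 with a negative difference, and for 11 of 100 listed genes. Aqp1 was lower in nuclei by more in members than in thick limb barcodes, with a difference of -3.35 (adjusted p = 4.13e-14). In the thick limb Aqp1 stood at 46.4, 51.3 and 44.0 CPM in nuclei and 35.9, 34.4 and 88.1 CPM in cells. So low a level leaves little room for a decrease. For Aqp1 the comparison thus cannot tell whether the decrease was particular to the members. Cryab (-2.41) and Akr1b3 (-2.43) also had negative differences. Both genes were lower in thick limb nuclei than in thick limb cells too (log2 fold change -3.85 and -1.88), so their decrease was not confined to the members. Kap had a difference of 3.57. It was higher in member nuclei than in member cells, and stood at 338, 313 and 304 CPM in thick limb nuclei against 1353, 896 and 569 CPM in thick limb cells. Cldn10 had a difference of 4.97, Slc6a6 of -2.23, Pax8 of -1.09 and Kcnj16 of 1.29. Pax8 lost this call in 5 of 8 alternatives and Kcnj16 in 3 of 8, and the other genes named here kept theirs in all 8. Cldn10 was most frequent in the Aadat-led and Acsm2-led nuclei, which go against the label, and their part in its difference was not tested. It was also lower in thick limb nuclei than in thick limb cells (-2.63), and stood at 0 to 38.3 CPM in member cells. The count was 73 without SN_FANS_3×500g library 2, and 69 and 59 without fresh library 1 and 3.

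The SN_FANS_1×2000g nuclei had higher levels of several thin limb genes and of abundant proximal tubule transcripts than the SN_FANS_3×500g nuclei. Of 4033 genes, 73 were higher (1.81%) and 0 were lower (0%). With an unadjusted p under 0.05, 319 were higher and 161 lower, and DESeq2 called 40 higher. Spp1 stood at 2751, 1444 and 1283 CPM against 401, 126 and 94.7 CPM (3.18 ± 0.45, adjusted p = 0.0055). Kap stood at 2699, 1720 and 2726 against 765, 379 and 320 CPM (2.37 ± 0.31), and Tmem27 at 366, 346 and 396 against 72.8, 33.2 and 65.5 CPM (2.76 ± 0.29). The other large increases were those of Uqcr11 (3.14) of the respiratory chain, the endoplasmic reticulum chaperone Hspa5 (2.74) and Cst3 (2.58), cystatin C.

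Of 6 thin limb genes 3 were higher, with a list median of 0.65 against -0.03 over all genes. They were Akr1b3 (715, 170 and 296 against 93.6, 113 and 102 CPM, 2.02 ± 0.46), Aqp1 (680, 757 and 596 against 359, 392 and 422 CPM, 0.89 ± 0.18, adjusted p = 0.032) and Cryab (430, 256 and 348 against 156, 173 and 182 CPM, 1.12 ± 0.25). Their groups did not overlap. Akr1b3 was detected in 100.0% of the Agmo-led cluster, which goes against the label and held 12 of the 191 SN_FANS_1×2000g and 6 of the 156 SN_FANS_3×500g nuclei, and the Rbfox1-led cluster held 58 and 21. The part of this makeup in the differences was not tested. Cdh13 did not pass (-0.07, adjusted p = 0.95). Of 6 abundant proximal tubule transcripts 5 were higher (Kap, Gpx3 1.50, Miox 1.80, Spink1 1.61 and Tmem27), as were Umod (1.23), Klk1 (2.52), Epcam (1.48), Hspa8 (2.36) and Atp1b1 (0.97). Their part in the thin limb result was not tested. Spp1, Tmem27, Kap and Klk1 passed under every alternative, but Aqp1 was lost in 9 of 11, Cryab in 7 of 11 and Akr1b3 in 5 of 10. Calls outside the thin limb list were lost too. Atp1b1 was lost in 9 of 11, Spink1 in 7 of 10, Miox in 6 of 9 and Epcam in 5 of 11. Umod was lost in 4 of 11, Hspa8 and Uqcr11 in 4 of 9 and Hspa5 in 3 of 9. Gpx3 was lost in 1 of 11 and Cst3 in 1 of 10. The count of higher genes was 7, 33 and 28 without SN_FANS_1×2000g library 1, 2 and 3, and 24, 25 and 39 without SN_FANS_3×500g library 1, 2 and 3.

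SN_sucrose nuclei differed from SN_FANS_3×500g nuclei in fewer genes, with 38 higher (1.18%) and 5 lower (0.156%) of 3210. Palld, an actin-binding protein, stood at 390, 169 and 109 against 15.6, 19.9 and 43.7 CPM (3.21 ± 0.54, adjusted p = 0.014). Spp1 stood at 1308, 737 and 1995 against 401, 126 and 94.7 CPM (2.84 ± 0.45), and Cst3 (2.75) and Tigd2 (2.46) were higher too. Among the 5 lower genes were the transcriptional regulators Mecom (-1.36) and Mllt3 (-1.14), the glycosyltransferase Galnt18 (-1.16 ± 0.21, 700, 664 and 708 against 1612, 1495 and 2170 CPM), and the phosphatase Ptprj (-1.05).

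Of the 6 thin limb genes reported here 0 passed. Aqp1 had a log2 fold change of 0.66 (adjusted p = 0.22). Malat1 was higher by 0.92 and kept its call in all 10 alternatives. Epcam (2.05), Miox (2.11) and Tmem27 (1.87) were higher too, calls lost in 1 of 10, 6 of 9 and 4 of 9. Of the lower genes Mllt3 lost its call in 8 of 10, Mecom and Ptprj in 6 of 10 and Galnt18 in 3 of 10, and of the higher ones Palld in 2 of 10, Spp1 in 3 of 10, Cst3 in 2 of 9 and Tigd2 in 3 of 9. Without single libraries the count of higher genes was 7, 15 and 8 (SN_sucrose 1, 2 and 3) and 32, 3 and 19 (SN_FANS_3×500g 1, 2 and 3), and that of lower genes 0, 3, 0, 13, 0 and 5. Between SN_sucrose and SN_FANS_1×2000g nuclei edgeR called 0 of 3557 genes in either direction (0%), with 168 higher and 165 lower at an unadjusted p under 0.05 and a smallest adjusted p of 0.302.

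The bulk libraries, which the rule did not use, gave the marker genes a second readout, though not one of the members alone. In the female fresh libraries 162 cells had 1 marker gene and no excluded gene, beside 81 members. The Agmo-led nuclei, which go against the label, had Slc14a2 in 100.0% and Slc4a11 in 95.0%. In bulk RNA, fewer cells of a type and less RNA per cell cannot be told apart. In C57BL/6J suspensions (5969212 to 8184923 counts a library) 764 of 14102 genes were higher after warm than after cold dissociation (5.42%) and 460 lower (3.26%), or 8.68% in either direction, and of the 6 marker genes 4 were higher. Slc14a2 stood at 7.40, 9.84 and 8.17 CPM warm and 3.05, 5.19 and 3.18 CPM cold (1.15 ± 0.23, adjusted p = 0.0094). Slc4a11 stood at 9.47, 9.84 and 9.38 against 2.93, 3.85 and 5.08 CPM (1.27 ± 0.21, adjusted p = 0.0032). The warm libraries lay above the cold ones for both.

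Fst stood at 3.24, 5.21 and 3.22 against 0.977, 1.34 and 2.38 CPM (1.31 ± 0.36, adjusted p = 0.043) and Bst1 at 6.23, 6.37 and 5.89 against 3.79, 4.19 and 3.02 CPM (0.72 ± 0.20, adjusted p = 0.047). Corin (0.08, adjusted p = 0.95) and Epha7 (-0.19, adjusted p = 0.67) did not pass. Slc4a11 kept its call in all alternatives, and Slc14a2 lost it without cold library 1 (adjusted p = 0.052). Bst1 lost it in 7 of 10 and Fst in 6 of 10, with DESeq2 and without 6 and 5 of the single libraries.

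Of the 8 other genes of the thin limb list 2 were higher, namely Cldn4 (2.40) and Bsnd (0.56), with a list median of 0.22 against -0.01 over all genes. Bsnd had no UMI in the fresh female members and was detected in 26.1% of thick limb cells, so its level in bulk is no measure of the thin limb. Cldn4 stood at 35.3 CPM over the 81 female fresh members and at 8.24 CPM over the 16866 other cells. Its bulk level is thus no measure of the members alone. Aqp1 did not pass (0.21, adjusted p = 0.085). Other tubule lists moved the same way, with 4 of 6 thick limb, 7 of 9 principal cell, 5 of 6 intercalated cell and 5 of 5 connecting tubule genes higher, whereas 6 of 7 podocyte and 5 of 7 immune genes were lower. The number of lower genes was 247, 285 and 219 without warm library 1, 2 and 3 and 224 without cold library 2.

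In female kidney the cold suspension held less marker RNA than intact tissue (21984996 to 31093949 counts a library). Of 16538 genes, 1308 were higher in the suspension (7.91%) and 2005 lower (12.1%), and of the 6 marker genes 4 were lower. Slc4a11 stood at 32.3, 26.8 and 31.6 CPM in suspension and 95.7, 94.9 and 128 CPM in tissue (-1.82 ± 0.12, adjusted p = 8.44e-06). Slc14a2 stood at 20.2, 28.1 and 32.6 against 39.8, 47.6 and 69.6 CPM (-0.96 ± 0.20, adjusted p = 0.0094). Bst1 stood at 15.0, 17.2 and 19.6 against 24.3, 26.0 and 37.8 CPM (-0.78 ± 0.16), and the groups of all 3 genes did not overlap.

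Corin was lower by -0.54 ± 0.15 (adjusted p = 0.029), a call lost without tissue library 2 or 3 or suspension library 1. Fst (-0.87, adjusted p = 0.099) and Epha7 (0.08, adjusted p = 0.74) did not pass. Of 8 other thin limb genes 3 were lower, and all 3 kept their calls. Most UMIs of these 3 genes in the female fresh droplet libraries lay outside the members. Aqp1 had 1006 in members and 9048 in other cells, Cryab 2278 and 8396, and Akr1b3 418 and 3816. Their bulk levels are thus no measure of the members alone. Aqp1 stood at 668, 722 and 644 against 1123, 1080 and 1090 CPM (-0.71 ± 0.06), Cryab at 45.0, 42.2 and 49.7 against 93.9, 100.3 and 187 CPM (-1.48 ± 0.22), and Akr1b3 at 34.9, 27.3 and 29.7 against 60.3, 61.8 and 121 CPM (-1.41 ± 0.24).

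Of 8 genes of osmotic adaptation 6 were lower, including the inositol transporter Slc5a3 (-0.78), the betaine transporter Slc6a12 (-1.03), Nfat5 (-0.40) and the chaperone Hspa4l (-0.31). None of 6 thick limb genes passed. Among other cell types, 4 of 4 hemoglobin and 6 of 7 immune genes were higher in suspension, and 6 of 7 stroma, 6 of 7 endothelium and 3 of 4 urothelium genes lower. Their part in the thin limb result was not tested. Without suspension library 1 the number of higher genes was 855.

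**Figure D4:**
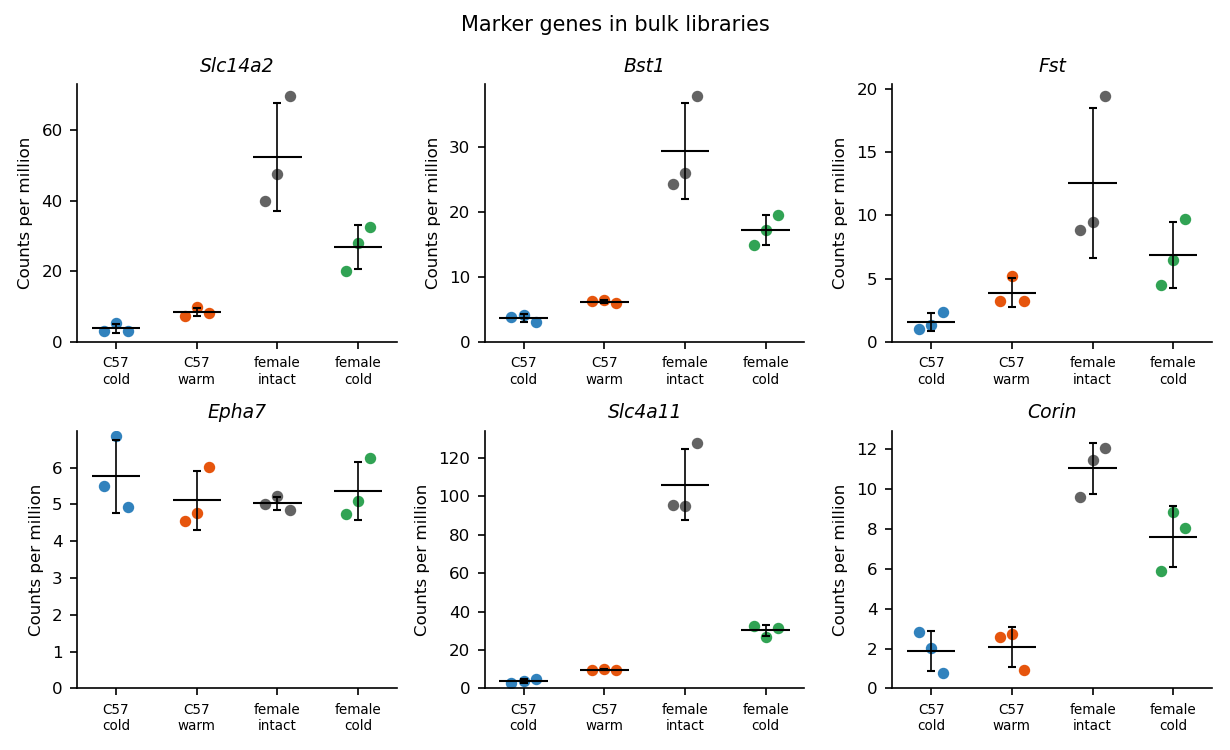
CPM of the 6 marker genes in each bulk library (points), with the group mean (line) and SD (bars, n = 3). C57BL/6J libraries are cold or warm suspensions and female Balb/c libraries intact kidney or cold suspension, so levels compare within an experiment only. Slc14a2 and Slc4a11 are higher in warm than in cold suspensions and lower in the female suspension than in tissue.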

How the data were processed

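Per the paper's methods, the authors aligned the 10x reads with Cell Ranger 2.1.1 to mm10, counting exons for cells and introns with exons for nuclei, and called cells with EmptyDrops. They kept genes seen in at least 10 cells of a sample and cells with 200 to 3000 genes and under 50% mitochondrial reads, or nuclei of at least 450 (v2) or 900 (v3) UMIs, from which mitochondrial genes were removed. The authors deposited UMI counts per gene and barcode, and for bulk libraries featureCounts read counts after STAR 2.6.1a, with rRNA depletion in the male and poly(A) selection in the female libraries. Whether the bulk counting used strand is not given in the sources used here.

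Library depth is the sum of deposited counts. Any 2 droplet libraries of the same chemistry shared at most 2.05% (v2) or 0.434% (v3) of the barcode sequences of the smaller one, and no shared barcode was a member in both. Groups came from the sample labels. Per the paper, the 3 libraries of a group came from kidneys of 3 mice, and cryopreserved, methanol-fixed and fresh cells were aliquots of suspensions. The sources used here do not tie aliquots to libraries, so groups that may share suspensions were treated as independent. Some genes are not reported here, and the counts and medians of the gene lists leave them out. Members and gene lists were chosen with earlier results of these data known. Counts of members were summed per library with at least 10 members and tested with edgeR 4.0.16 (R 4.3.3; glmQLFTest, TMM, filterByExpr, Benjamini-Hochberg), with DESeq2 1.42.0 as an alternative, and bulk counts likewise. The 11 genes of the rule were left out of the calls on members. Shares were compared with two-sided exact permutation tests over libraries (scipy 1.17.1), adjusted over 7 comparisons, and 5 of 12 planned ones, all of C57BL/6J cells, were not run because a group had fewer than 2 libraries with UMIs of at least 2 marker genes. Members were clustered with scanpy 1.11.5 (Leiden, resolution 0.6, 1500 variable genes, 15 components, 10 neighbors). Tested genes of the lists were described by list, for some comparisons only in part. Up to 5 called genes with the largest fold change in each direction whose libraries did not overlap were named. Leading genes of the members were the 15 of highest ratio among those at 50 CPM or more. Folds against a group with no UMI are lower bounds at 3 UMIs over the group. The tests were tested on simulated data. Alternatives were thinning to 500 or 1000 UMIs, at least 3 marker genes, leaving out members with Slc34a1, no filter on low counts, DESeq2 or its size factors, a fold limit for bulk, and leaving out each library.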

Additional observations from a re-analysis of the deposited data

Results flagged for a closer look

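Of the genes compared between SN_FANS_3×500g nuclei and fresh cells of female kidney, 21 stood out because an interaction term of edgeR found that the log2 fold change in members was not equal to that in thick limb barcodes of the same libraries. The difference, members minus thick limb, was 6.35 for Lpl, lipoprotein lipase (adjusted p = 1.58e-10), 5.44 for Ly6a, 4.97 for Cldn10, 3.57 for Kap and 1.29 for Kcnj16. It was -5.83 for Cp, ceruloplasmin (adjusted p = 5.17e-07), -3.35 for Aqp1, -3.03 for Akap12, -2.43 for Akr1b3, -2.41 for Cryab, -2.23 for Slc6a6, -1.87 for Apela, -1.32 for Jund and -1.09 for Pax8. The fitted difference was 10.1 for Fam107a, 8.65 for Upb1 and 8.48 for Itgb8, which had no UMI in the fresh members. It was -8.89 for Adamts5 and -7.31 for Bcat1, which had no UMI in the fresh thick limb cells, and -8.37 for Slc39a1 and -7.71 for Gstm2, which had none in the member nuclei. The size of these 7 fitted values depends on the fit and is no bound. Lpl, Ly6a and Cldn10 were lower in thick limb nuclei than in thick limb cells (log2 fold change -3.12, -5.75 and -2.63). Ly6a stood at 2091, 1910 and 2386 CPM in thick limb cells. In the members it stood at 0, 25.5 and 75.0 CPM in cells and 31.9, 20.4 and 44.6 CPM in nuclei. Lpl stood at 0 to 12.8 and Cldn10 at 0 to 38.3 CPM in member cells. These 3 differences are thus no measure of a change in the members alone. Of 8 alternatives, Slc39a1 lost its call in 6, Upb1, Itgb8, Gstm2 and Pax8 in 5, Jund in 4, Kcnj16 in 3 and Adamts5 and Bcat1 in 2, and the other 12 genes kept theirs in all 8.

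The male intact kidney bulk libraries, which enter no comparison, held all 6 marker genes of the rule above 3 reads in each of the 3 libraries. Slc14a2 stood at 15.0 to 19.02 CPM, Slc4a11 at 12.5 to 22.8, Bst1 at 9.39 to 10.7, Corin at 5.16 to 5.93, Epha7 at 4.19 to 6.14 and Fst at 5.204 to 5.59 CPM, from 12 to 180 counts a gene. The droplet libraries of the same male experiment held 16 members among the cells and 15 among the nuclei.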

How the results depend on the processing

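No paired analysis was possible because the labels carry no replicate numbers that groups share, and which fresh and cryopreserved libraries came from the same suspension is not given in the sources used here. In members, genes higher and lower after cryopreservation numbered 6 and 12 with DESeq2 and 28 and 43 without the filter on low counts, and 6 were higher without members with Slc34a1. Between SN_FANS_3×500g nuclei and cells they numbered 2817 and 2104 without the filter and 600 and 553 with at least 3 marker genes, and 925 were higher without Slc34a1. Between SN_FANS_1×2000g and SN_FANS_3×500g, 40 were higher with DESeq2, 135 higher and 21 lower without the filter, 28 and 2 with at least 3 marker genes and 35 and 1 without Slc34a1. Between SN_sucrose and SN_FANS_3×500g they were 20 and 1 with DESeq2 and 71 and 83 without the filter, with 22 higher without Slc34a1. Between SN_sucrose and SN_FANS_1×2000g they were 15 and 13 without the filter, and 1 was lower without Slc34a1. In bulk, warm against cold gave 1178 and 734 without the filter and 63 and 9 at a log2 fold change of at least 2, and the female comparison 38 and 240 at that size. The cause of these changes was not tested.

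The difference in share between SN_FANS_1×2000g and SN_FANS_3×500g was reversed at 500 UMIs (-0.0437), at 1000 UMIs (-0.0568) and without Slc34a1 (-0.0874), and that between all nuclei and fresh cells without Slc34a1 (-0.0416). When single libraries were left out, it ran from -0.00386 to 0.114 for SN_FANS_1×2000g against SN_FANS_3×500g, 1.24 to 1.90 after cryopreservation, -0.188 to -0.0374 in male kidney, 0.0922 to 0.246 for SN_FANS_3×500g and 0.0350 to 0.189 for all nuclei against fresh cells, and -0.333 to -0.172 and -0.394 to -0.233 for SN_sucrose against SN_FANS_3×500g and SN_FANS_1×2000g. Counts of higher and lower genes then ran from 0 to 5 and 0 to 15 after cryopreservation, 1449 to 1726 and 1312 to 1467 for nuclei against cells, 7 to 39 and 0 to 2 for SN_FANS_1×2000g and 3 to 32 and 0 to 13 for SN_sucrose against SN_FANS_3×500g, 551 to 639 and 219 to 327 for warm against cold bulk, and 855 to 1141 and 1491 to 1945 for the female bulk. The interaction gave 59 to 129 genes. Without single libraries Corin in warm against cold bulk ran from -0.24 (without cold library 3) to 0.54, also below 0 without warm library 1 (-0.10) or 2 (-0.14), and Epha7 in female bulk from -0.047 (without suspension library 3) to 0.16. Of 1407 values recomputed for 143 named genes, 181 lost their call, 8 gained one and 4 were reversed without single libraries, and 31 lost and 5 gained it under the other alternatives. The fits with at least 3 marker genes could not be run for cryopreserved cells and SN_sucrose. Few members per library limit the values on members.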
